A study of Homo sapiens with 3 samples.

Results

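The 9 genes described here encode isoforms of protein kinase C (PRKCA, PRKCD, PRKCE, PRKCH, PRKCI and PRKCZ) and protein kinase D (PRKD1, PRKD2 and PRKD3). They were chosen by gene symbol, and all 9 were found among the 17576 genes of the table. The cells were LX-2, an established human cell line derived from hepatic stellate cells, which deposit scar matrix in the liver, and their RNA was sequenced. There were 3 libraries, 1 in each of 3 groups: vehicle (DMSO), transforming growth factor beta 1 (TGF-b1), and TGF-b1 together with 10 μM DP, a natural small molecule known here by that label only. All cultures were of the same line in serum-containing medium and were treated for 48 h. With 1 library per group there was no replicate check, no test and no p-value, and every difference below is between libraries.

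Protein kinase C is a family of serine and threonine kinases that relay signals from the cell membrane. Phospholipase C cleaves a membrane lipid into diacylglycerol and inositol trisphosphate, which releases calcium. The classical isoforms (here PRKCA) are switched on by diacylglycerol and calcium together. A further class (PRKCD, PRKCE and PRKCH) needs diacylglycerol but not calcium and is called calcium-independent here. The atypical isoforms (PRKCI and PRKCZ) respond to neither and work in cell polarity complexes. Protein kinase D also binds diacylglycerol and is phosphorylated by the calcium-independent isoforms. Stellate cells carry receptors for growth factors and vasoactive peptides that signal through this pathway. The values are RNA levels, and they measure neither the protein nor its activity.

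The sequence around a start listed for each gene was read from RefSeq (GRCh38.p14), in windows from 250 bases before to 50 bases after that start. All 9 genes matched. Some genes have several listed starts, and the windows shown for PRKCD and PRKCH lie inside the gene positions given below. The windows of PRKCA, PRKCD and PRKCH are shown as examples. As described below, PRKCA was lower in both TGF-b1 libraries, PRKCD higher and PRKCH lower with DP. PRKCZ and PRKD2 differed between libraries by about as much as PRKCD and are not shown. The windows shown lie at chr17:66302363-66302662, chr3:53160959-53161258 and chr14:61321329-61321628, all on the plus strand, and capitals mark the GC box GGGCGG on either strand.
PRKCA: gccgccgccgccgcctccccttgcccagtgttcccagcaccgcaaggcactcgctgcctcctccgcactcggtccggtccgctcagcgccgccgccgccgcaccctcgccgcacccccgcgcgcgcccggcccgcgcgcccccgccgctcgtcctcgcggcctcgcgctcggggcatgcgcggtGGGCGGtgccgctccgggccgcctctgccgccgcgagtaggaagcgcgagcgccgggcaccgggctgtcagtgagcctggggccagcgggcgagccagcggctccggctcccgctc
PRKCD: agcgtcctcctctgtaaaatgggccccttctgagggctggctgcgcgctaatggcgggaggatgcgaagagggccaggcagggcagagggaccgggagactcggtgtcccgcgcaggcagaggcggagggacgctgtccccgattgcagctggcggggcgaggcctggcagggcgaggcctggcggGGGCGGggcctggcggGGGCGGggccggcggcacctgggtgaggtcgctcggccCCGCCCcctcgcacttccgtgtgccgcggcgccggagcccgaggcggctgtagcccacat
PRKCH: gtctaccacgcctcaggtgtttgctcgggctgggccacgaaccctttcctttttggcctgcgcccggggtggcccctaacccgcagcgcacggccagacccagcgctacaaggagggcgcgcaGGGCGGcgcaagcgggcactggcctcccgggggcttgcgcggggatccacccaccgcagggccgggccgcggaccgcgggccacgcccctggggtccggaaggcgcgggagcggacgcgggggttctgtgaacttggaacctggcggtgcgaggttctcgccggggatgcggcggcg
In the first window listed for each gene a GC box was present in 9 of 9 members, against 72.2% of 9401 windows of genes at a mean of 1 FPKM or more. GC content was 81.3% for PRKCA, 75.0% for PRKCD and 74.3% for PRKCH, and 58.3% was the median over the first windows of all genes. The letters TGANTCA, the AP-1 site, were in 0 of 9, against 4.01% of the same windows, and the SMAD element GTCTAGAC in 0 of 9, against 0.138%. Over all 16 windows listed for the 9 genes, 13 held a GC box and none held the other letters, against 45% (GC box), 7.71% (AP-1) and 0.202% (SMAD) of the 35116 windows of all genes. The 58.3% and these last shares cover genes of any level, while all 9 members were at a mean of 1 FPKM or more. In first windows the GC box share over all genes was 44.6%, below the 72.2% above. Both strands were searched. These matches describe the letters in these windows only.

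The authors deposited FPKM values (fragments per kilobase of transcript, relative to the mapped fragments of the library). They are per length, so genes can be compared within a library, but only roughly. A trend with transcript length, described below, differed between the libraries. Differences are given as log2((FPKM+1)/(FPKM+1)), so a value of 1 is a 2-fold difference on a scale that understates differences of low genes. A gene was called higher or lower at 1 or more. All 9 members passed the filter on low values, a mean over the libraries of 1 FPKM or more, as did 11327 genes in all. The libraries summed to between 429399 and 546754 FPKM, highest in TGF-b1. COL1A1 (295 to 604 FPKM) and VIM (1936 to 2800) were high in every library, while the stellate markers DES, LRAT and LUM were at or below 0.06 FPKM. Hepatocyte markers stayed at or below 0.08 FPKM. Here and below, values given as a series are for DMSO, TGF-b1 and TGF-b1+DP in that order. Endothelial markers summed to 1.17, 1.16 and 3.60 FPKM and biliary markers to 16.1, 21.3 and 10.6. Leukocyte markers summed to 53.9, 24.8 and 56.0 FPKM, most of it CD68 (48.5, 21.3 and 54.8), while CD14 was lower in each library in turn (4.77, 2.94 and 0.96), PTPRC was at or below 0.58 and CD3E at 0. Their part in the differences below was not tested.

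In the vehicle library PRKCA and PRKCZ were the most abundant isoforms, at 23.8 and 23.3 FPKM, levels above 79.4% and 79.1% of all genes. PRKD2 (16.5 FPKM), PRKCD (14.6) and PRKD3 (13.3) came next. PRKCI (5.62), PRKD1 (4.88), PRKCE (3.35) and PRKCH (2.0) were the lowest, PRKCH being above 40.5% of genes. In TGF-b1 the order was led by PRKCZ, PRKD3 and PRKD2, and with DP by PRKD2, PRKCD and PRKCZ, while PRKCA moved from rank 1 to rank 4 and then rank 5. PRKCI, PRKD1, PRKCE and PRKCH kept ranks 6 to 9 in all 3 libraries. No spread is available to say which neighbours in these orders differ, and the trend with transcript length described below can move them. Among isoforms outside the 9, PRKCB was listed at 0 in all 3 libraries and PRKCQ was at most 0.17 FPKM.

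**Figure D1:**
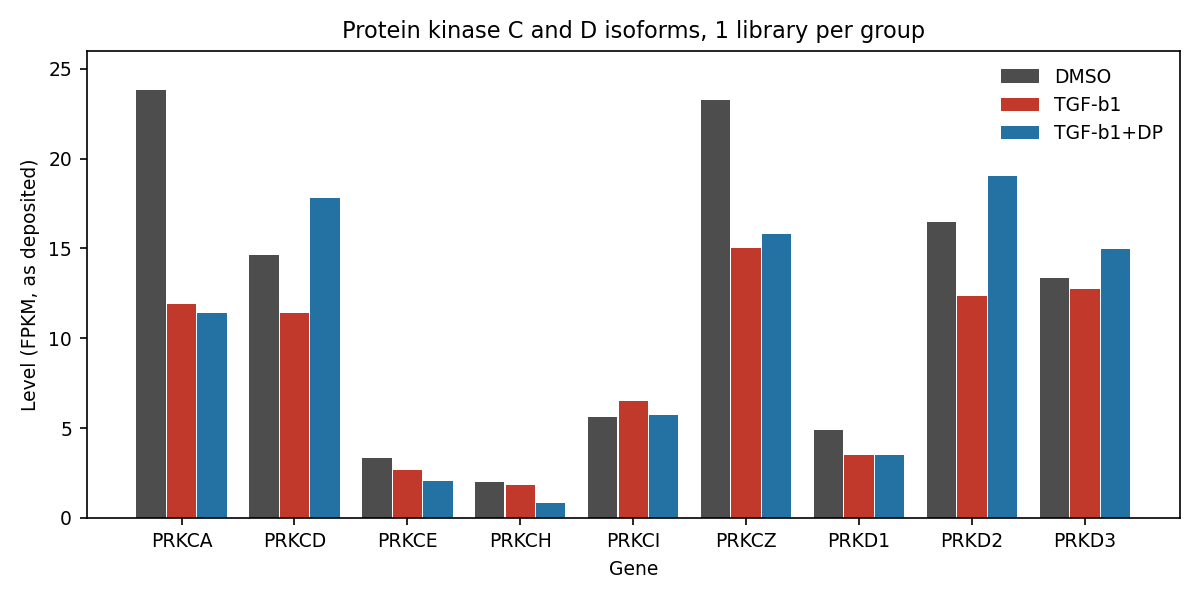
Level of each isoform (FPKM as deposited, linear axis from 0) in the 3 libraries, 1 bar per library and no error bars because there are no replicates. PRKCA is at 23.8 FPKM in DMSO and 11.9 and 11.4 in the other libraries, and PRKCD and PRKD2 are highest with DP.

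PRKCA, the classical isoform among the 9, was as deposited about 0.5 times as abundant in both libraries that received TGF-b1. It measured 23.8 FPKM with vehicle, 11.9 with TGF-b1 alone and 11.4 with TGF-b1 and DP. In a bulk library, fewer cells with a transcript and less of it per cell cannot be told apart. The TGF-b1 level was 50.1% of the DMSO level and the TGF-b1+DP level 47.9%. The log2 difference was -0.94 for TGF-b1 against DMSO, just inside the limit of a call, and -1.001 for TGF-b1+DP against DMSO, just past it. Between the libraries with and without DP it was -0.06, and 0.26 with all libraries scaled to the same total FPKM. The level with TGF-b1 alone depended on the processing: corrected for transcript length and GC content by a local linear fit, the difference was -0.34 for TGF-b1 against DMSO and -0.63 for DP against TGF-b1. The difference from DMSO with DP was within 1, between -0.85 and -0.97, in 5 of the 9 other settings. The gene (gene ID 5578) lies on chromosome 17, 66302636 to 66810743 (GRCh38, GENCODE release 29).

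The calcium-independent isoforms went different ways with DP. PRKCD measured 14.6 FPKM with vehicle, 11.4 with TGF-b1 alone and 17.8 with TGF-b1 and DP. It was thus lowest with TGF-b1 alone (-0.33) and 1.56-fold higher with DP than without (0.60). PRKCE was lower in each library in turn, at 3.35, 2.65 and 2.07 FPKM (-0.25 for TGF-b1 against DMSO and -0.25 for DP against TGF-b1). PRKCH was at 2.0, 1.85 and 0.82 FPKM. Its level with DP was 44.3% of that in TGF-b1 alone (-0.65) and 41.0% of that in DMSO (-0.72), the lowest ratios of any isoform in those comparisons. PRKCH is low, so the added 1 FPKM weighs on it: with a pseudocount of 0.1 FPKM the differences were -1.08 and -1.19. Its exons also overlap those of a same-strand gene, AL355916.2, by 419 bases, and of TMEM30B on the other strand by 356 bases, so its reads may be shared. PRKCD (gene ID 5580) lies on chromosome 3, 53156009 to 53192717, PRKCE (5581) on chromosome 2, 45651345 to 46187990, and PRKCH (5583) on chromosome 14, 61187559 to 61550976.

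The atypical isoforms also differed from each other. PRKCZ measured 23.3 FPKM with vehicle, 15.0 with TGF-b1 alone and 15.8 with TGF-b1 and DP, lower in both libraries with TGF-b1 (-0.60 and -0.53 against DMSO). PRKCI was at 5.62, 6.51 and 5.73 FPKM, within 0.18 of DMSO on the log2 scale in both. As deposited PRKCI was the only member above its DMSO level in TGF-b1. With the same total FPKM it too was below (-0.08), while under other scalings or corrections PRKCE, PRKCH, PRKD2 and PRKD3 were also above, by at most 0.14, 0.13, 0.12 and 0.11. The ratio of PRKCI to PRKCZ within a library, which no scaling of the libraries can move, was 0.242, 0.433 and 0.363. A trend with transcript length can still move it. Corrected for length and GC content by the local linear fit, PRKCI was at 0.15 and PRKCZ at -0.42 for TGF-b1 against DMSO. Exons of PRKCZ overlap those of FAAP20, on the other strand, by 590 bases. FAAP20 was at 63.1, 83.8 and 57.9 FPKM, highest in the library where PRKCZ was lowest. PRKCI has a processed pseudogene on chromosome X whose transcript matched it at about 1318 bases. The match was made without base-level alignment, so no identity is given, and sharing of reads was not tested. PRKCZ (gene ID 5590) lies on chromosome 1, 2050470 to 2185395, and PRKCI (5584) on chromosome 3, 170222365 to 170305981.

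Among the protein kinase D genes PRKD2, as deposited, followed the order seen for PRKCD. PRKD2 measured 16.5 FPKM with vehicle, 12.4 with TGF-b1 alone and 19.0 with TGF-b1 and DP (-0.39 for TGF-b1 against DMSO and 0.58 for DP against TGF-b1). The first of these was 0.12 after the local linear correction for length and GC content, where PRKCD was at -0.09, so the shared order did not hold there. PRKD2 was the most abundant of the 9 genes with DP. PRKD3 was at 13.3, 12.7 and 15.0 FPKM (-0.06 and 0.22), and PRKD1 at 4.88, 3.51 and 3.49 (-0.38 and -0.01). The first difference of PRKD3 was above 0 under median-of-ratios scaling (0.11) and upper-quartile scaling (0.06). The second of PRKD1 was 0.26 with the same total FPKM. PRKD3 exons overlap those of NDUFAF7, on the other strand, by 265 bases, and NDUFAF7 was at 6.33, 7.88 and 5.47 FPKM. PRKD1 (gene ID 5587) lies on chromosome 14, 29576479 to 30191898, PRKD2 (25865) on chromosome 19, 46674275 to 46717127, and PRKD3 (23683) on chromosome 2, 37250502 to 37324808, all 3 on the minus strand.

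The make-up of the family can be read within each library, free of scaling between libraries but not of the trend with transcript length described below. PRKCA held 22.2%, 15.3% and 12.5% of the summed FPKM of the 9 genes. PRKCD held 13.6%, 14.6% and 19.5%, and PRKD2 held 15.4%, 15.9% and 20.9%. By class, the protein kinase D genes together held 32.3%, 36.7% and 41.2%, the calcium-independent isoforms 18.6%, 20.4% and 22.7%, and the atypical isoforms 26.9%, 27.6% and 23.6%. PRKCA was thus 1.63, 1.04 and 0.640 times PRKCD. Within the calcium-independent class PRKCD was 4.36, 4.31 and 8.60 times PRKCE, and 7.31, 6.17 and 21.7 times PRKCH. The genes whose products bind diacylglycerol (PRKCA, the calcium-independent isoforms and protein kinase D) held 73.1%, 72.4% and 76.4% together. The 9 genes summed to 107.3, 78.0 and 91.1 FPKM.

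**Figure D2:**
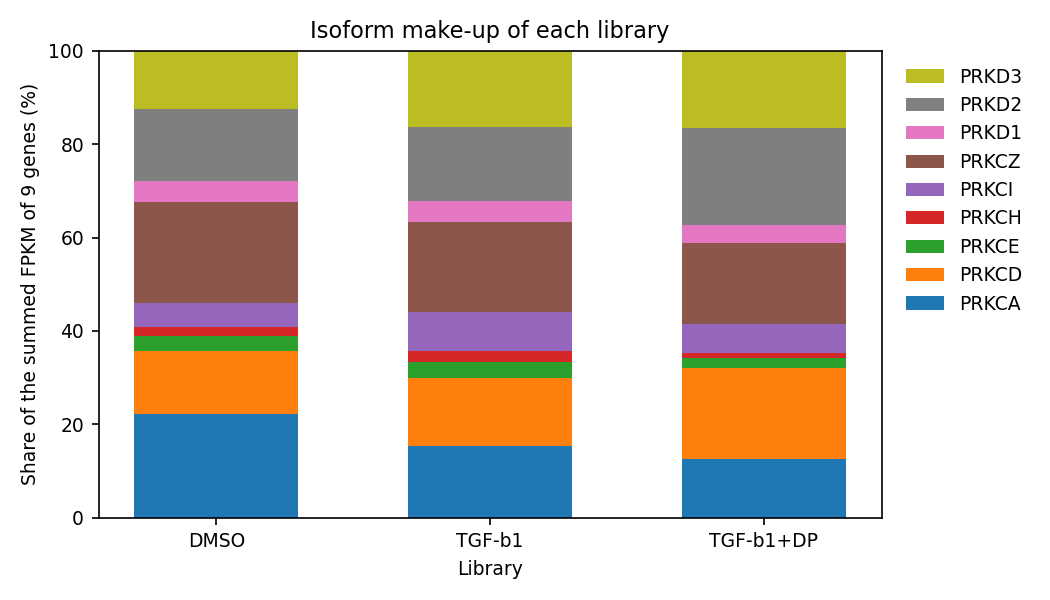
Share of each isoform in the summed FPKM of the 9 genes (%, stacked to 100) in the 3 libraries. The PRKCA part narrows from 22.2% in DMSO to 12.5% with DP, and the PRKD2 part widens from 15.4% to 20.9%.

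With 1 FPKM added to each value, few isoforms reached a log2 difference of 1. For TGF-b1 against DMSO 0 of 9 were higher and 0 of 9 lower, beside 2.31% and 6.73% of all genes. For TGF-b1+DP against TGF-b1 the counts were also 0 and 0, beside 6.19% higher and 4.26% lower. For TGF-b1+DP against DMSO none was higher (2.45% of all genes) and PRKCA was the 1 lower member (2.88%). With 9 genes, these background shares would amount to less than 1 gene each, so the counts are near the background. Without the added 1 FPKM, PRKCH was also more than 2-fold lower with DP, at 44.3% of TGF-b1 and 41.0% of DMSO, and at a pseudocount of 0.1 FPKM it was counted as lower in both. The member medians were -0.33, -0.01 and -0.39 for the 3 comparisons in this order, beside -0.10, -0.004 and -0.10 over all genes tested. After the 2 corrections for length and GC content the first was 0.02 and -0.01. The second was 0.26 with the same total FPKM, beside 0.29 over all genes, and the third was 0.09 over the 6 members with a mean of 5 FPKM or more. Each library enters 2 of the 3 comparisons, so they are not independent of each other. Set among all genes, PRKCA was lower than all but 8.08% of them for TGF-b1 against DMSO and all but 2.85% for TGF-b1+DP against DMSO. For DP against TGF-b1, PRKCH had 14.3% of genes below it, and PRKCD and PRKD2 had 83.7% and 83.0% below them.

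The sign of a difference depended least on the processing for TGF-b1+DP against DMSO. There the sign of each of the 9 members was the same as deposited and in the 5 settings that could change a sign, namely 3 scalings and 2 corrections for length and GC content: PRKCD, PRKCI, PRKD2 and PRKD3 above 0, and PRKCA, PRKCE, PRKCH, PRKCZ and PRKD1 below. For TGF-b1 against DMSO 4 members stayed below 0 (PRKCA, PRKCD, PRKCZ and PRKD1) and 5 took both signs. For DP against TGF-b1 3 stayed above 0 (PRKCD, PRKD2 and PRKD3), 2 below (PRKCE and PRKCH), and 4 took both signs.

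**Figure D3:**
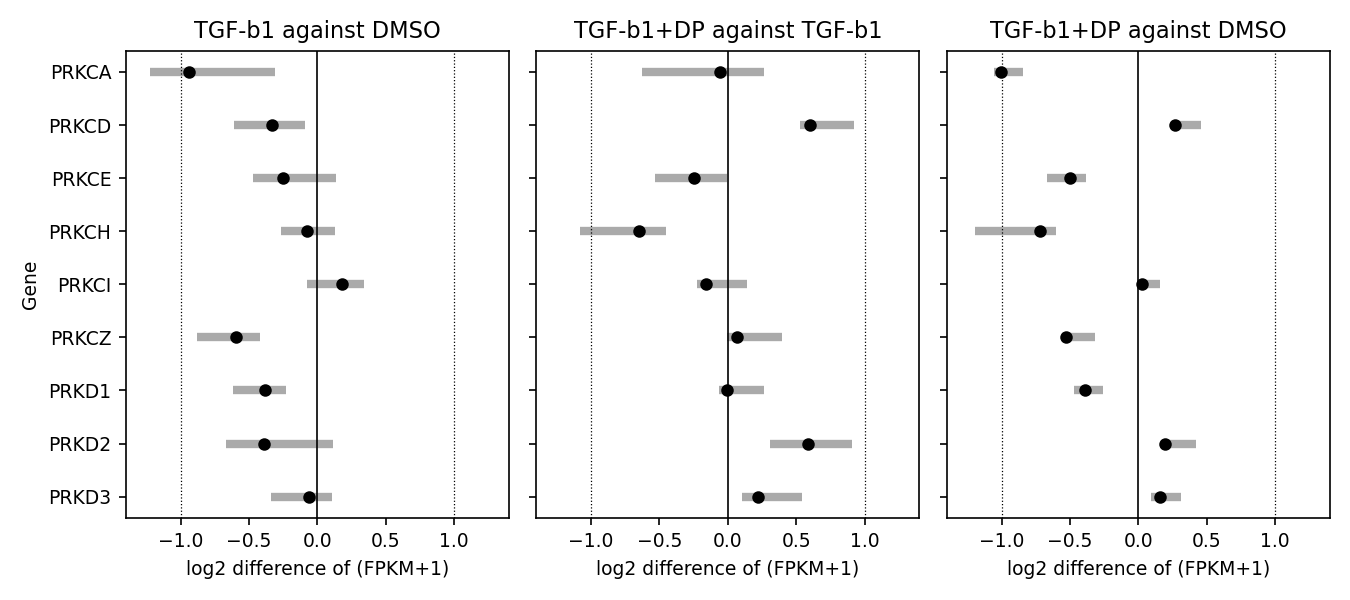
Log2 difference of (FPKM+1) for each isoform in the 3 comparisons: points are the values as deposited, grey bars the range over all settings that kept the gene (not a replicate error), and dotted lines the limit of a call at 1. PRKCA reaches -1.001 for TGF-b1+DP against DMSO, and no grey bar crosses 0 in that panel.

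Differences that involve the TGF-b1 library ran with transcript length across all genes, and PRKCA has a long transcript. Its longest GENCODE transcript is 8751 bases, longer than 93.8% of the genes tested. For TGF-b1 against DMSO the median was 0.43 in the 1410 shortest genes and -0.47 in the 1410 longest, and for DP against TGF-b1 it was -0.62 and 0.48. In the comparison that leaves the TGF-b1 library out they were -0.16 and -0.001. The local linear correction for length and GC content was added after the data were seen. With it PRKCA, at -0.34 and -0.63 in the 2 steps, was at -0.97 for TGF-b1+DP against DMSO. Its total difference from DMSO with DP was therefore similar in both forms, while its division between the 2 steps was not. With the same correction PRKCD was at 0.55 and PRKD2 at 0.31 for DP against TGF-b1, PRKCH at -0.69 and PRKCE at -0.54. PRKCZ, with one of the shorter transcripts (2326 bases), was at -0.42 for TGF-b1 against DMSO.

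**Figure D4:**
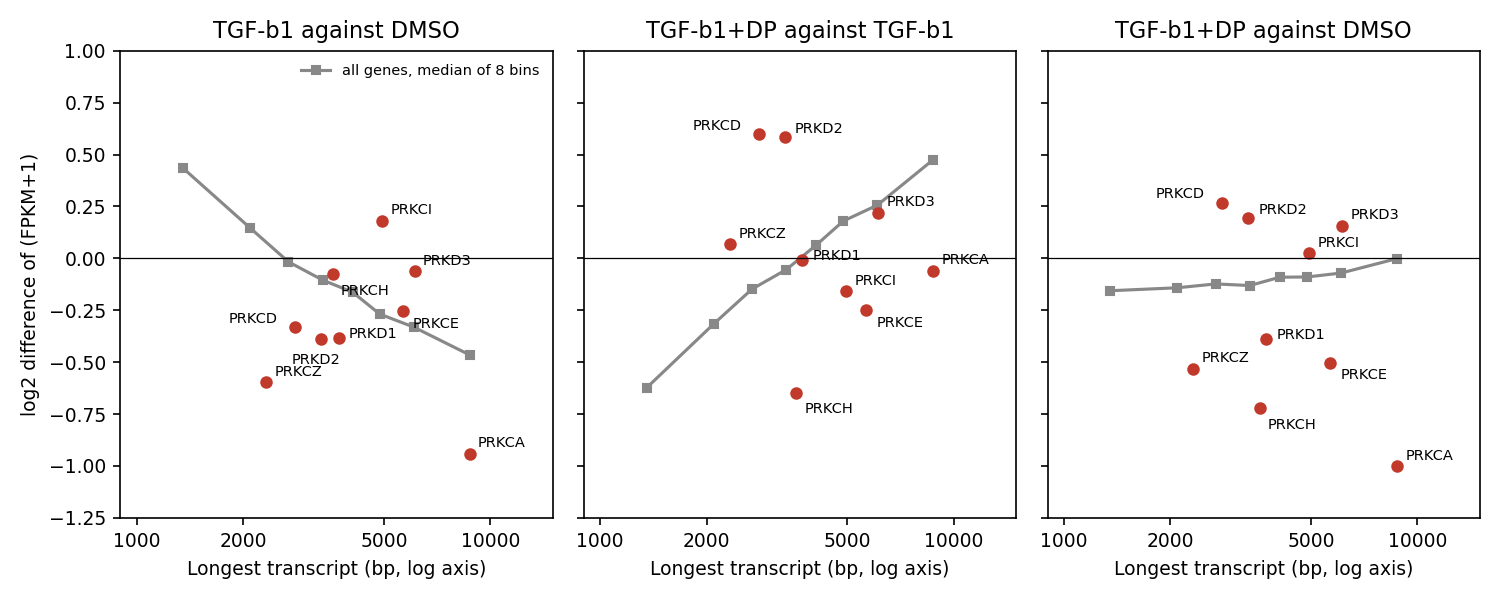
Log2 difference of (FPKM+1) against the length of the longest transcript (log axis) for the 9 isoforms (red) and for all genes as medians of 8 equal bins of length (grey line). The grey line falls from 0.43 to -0.47 for TGF-b1 against DMSO, rises from -0.62 to 0.48 with DP against TGF-b1 alone, and is nearly flat with DP against vehicle, where PRKCA lies at -1.001.

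PRKCA was the only isoform whose level on the log2(FPKM+1) scale spanned 1 or more over the 3 libraries, while at a pseudocount of 0.1 FPKM PRKCH did so too (-1.19 for TGF-b1+DP against DMSO). The genes nearest to its pair of differences (TGF-b1 minus DMSO and TGF-b1+DP minus TGF-b1) were ADGRB2, GAS2L3 and MCM6, at Euclidean distances of 0.02, 0.03 and 0.04. MCM6, a subunit of the replicative helicase, was at 33.3, 16.7 and 15.5 FPKM, and ADGRB2, an adhesion receptor, at 10.2, 4.77 and 4.61. In all, 18 genes lay within 0.1. The likeness is over 3 libraries only.

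The genes around these kinases were read from lists drawn up with earlier results of these data known. Of all genes 2.31% were higher and 6.73% lower for TGF-b1 against DMSO, and 6.19% higher and 4.26% lower for DP against TGF-b1. In a list of 11 genes or fewer each of these shares amounts to less than 1 gene, so a count of 1 is near the background. With the same total FPKM the shares were 13.8% lower for TGF-b1 against DMSO and 12.7% higher for DP against TGF-b1. After the local linear correction for length and GC content 2.2% were higher and 1.82% lower for TGF-b1 against DMSO. For DP against TGF-b1 3.18% were higher and 2.41% lower. The correction thus left fewer calls over all genes, and not only in the lists below. Upstream, 3 of 7 phospholipases C at 1 FPKM or more were lower in TGF-b1 and 2 were higher once DP was added, with medians of -0.80 and 0.51. PLCG1, which acts downstream of growth factor receptors, measured 57.3, 18.6 and 51.0 FPKM (-1.58 and 1.41). After the correction for length and GC content none of the 7 reached 1 in either comparison, and PLCG1 was at -0.81 and 0.75. Of 6 diacylglycerol kinases, which remove diacylglycerol, none reached 1, and the list medians were -0.68 and 0.78, or -0.11 and 0.32 corrected. With the same total FPKM 2 of the 6 were lower in TGF-b1 and 3 higher with DP. DGKH, at 1.28, 0.69 and 2.2 FPKM, passed the filter only through its level with DP. It had the largest difference of the 6 for DP against TGF-b1 (0.92). Its place in the counts and medians of this list follows from that level. Among 5 other proteins with a diacylglycerol-binding type of domain, CHN1, a regulator of Rac, was higher in TGF-b1 (15.2, 34.4 and 21.2 FPKM, 1.13), and 2 were lower, of which CDC42BPB was at 26.2, 9.75 and 27.9 FPKM (-1.34, then 1.43 with DP). Corrected, none of the 5 reached 1. Of 3 PKN kinases, relatives of protein kinase C, PKN3 was lower in TGF-b1, at 13.1, 5.83 and 6.09 FPKM (-1.04, or -0.50 corrected and -0.87 under median-of-ratios scaling).

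Of 11 genes that mature the kinases or dephosphorylate them 2 were lower in TGF-b1 and 1 higher with DP, with medians of -0.43 and 0.45. PHLPP1, a phosphatase that dephosphorylates protein kinase C, was at 8.87, 3.03 and 5.21 FPKM (-1.29 for TGF-b1 against DMSO), and MTOR at 18.5, 8.67 and 19.7 (1.10 for DP against TGF-b1). Of 10 partners of the atypical isoforms in cell polarity 2 were lower in TGF-b1, including PARD3 (11.8, 5.08 and 11.0 FPKM, -1.07), and WWC1 was higher with DP (9.16, 5.25 and 12.6 FPKM, 1.12). These 4 named genes were within 1 after the correction, while 1 of the 10 partners was still lower in TGF-b1. Among 7 scaffolds AKAP13 was lower in TGF-b1 (-1.10, or -0.32 corrected). AKAP12, which anchors protein kinases A and C, was the 1 scaffold called higher with DP as deposited. It measured 24.4, 23.7 and 92.4 FPKM (1.92, and 1.43 corrected). With the same total FPKM 4 of the 10 partners and 2 of the 7 scaffolds were lower in TGF-b1, and 3 and 4 were higher with DP. Among the partners PARD3B, at 1.99, 0.57 and 1.27 FPKM, passed the filter only through its DMSO level. Its place among the 10, and in any count of them, follows from that value.

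Substrates of protein kinase C had a median of -0.08 for TGF-b1 against DMSO (0.11 under median-of-ratios scaling) and -0.44 for DP against TGF-b1. Of 10 at 1 FPKM or more, 2 were higher and 1 lower in TGF-b1, and 1 was higher and 2 lower with DP. The balance for TGF-b1 turned with the scaling, to 0 higher and 3 lower with the same total FPKM and to 3 higher and 0 lower under median-of-ratios scaling. Of all genes 0.918% were higher and 13.8% lower with the same total FPKM. Under median-of-ratios scaling the shares were 5.16% and 4.3%. MARCKS, an actin-binding membrane protein and a classic substrate, measured 108, 255 and 112 FPKM. That is a difference of 1.23 and then -1.19, or 1.28 and -1.21 corrected as above, and 0.93 and -0.84 with the same total FPKM. PPP1R14A, whose product inhibits myosin phosphatase once protein kinase C has phosphorylated it, was at 16.7, 20.4 and 5.71 FPKM (-1.67 for DP against TGF-b1, -1.10 corrected). TOP2A, a DNA topoisomerase, was lower in TGF-b1 (-1.01, or -0.99 corrected and -0.83 under median-of-ratios scaling) and ADD2, of the membrane skeleton, higher with DP (1.19, or 0.55 corrected). Of 10 substrates of protein kinase D 2 were lower in TGF-b1 and 3 higher with DP, with medians of -0.74 and 0.83, or -0.31 and 0.39 corrected. The counts were 5 lower and 6 higher with the same total FPKM. Corrected, none was lower in TGF-b1, and 1 was higher and 1 lower with DP. RIN1, a Ras effector, was at 36.2, 11.1 and 5.46 FPKM (-1.62 for TGF-b1 against DMSO and -0.91 for DP against TGF-b1, or -0.96 and -1.35 corrected). HDAC5, a histone deacetylase that protein kinase D drives out of the nucleus, was at 11.8, 5.28 and 15.4 (1.38 for DP against TGF-b1, 0.87 corrected).

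Genes known to rise in other cells when protein kinase C is activated were set beside the isoforms. Of 20 at 1 FPKM or more, 10 were higher once DP was added and none was lower, beside 6.19% and 4.26% of all genes, with a median of 0.99. MMP1, interstitial collagenase, measured 21.0, 9.43 and 228 FPKM (4.46). Against DMSO 14 of the 20 were higher with TGF-b1 and DP and none was lower, beside 2.45% and 2.88% of all genes. The largest of these differences was that of SERPINB2, an inhibitor of plasminogen activators, named after its values were seen (1.23, 0.35 and 26.4 FPKM, 3.62). The filter used the mean over all 3 libraries, and SERPINB2 passed it only through its level with DP. Its place in both counts follows from that value. Of the 14, JUNB (1.76), HBEGF (1.32) and MT2A (1.15) were already higher with TGF-b1 alone against DMSO. For DP against TGF-b1 they were at -0.40, -0.16 and 0.27. FOS, MMP3 and PTGS2 of the same list did not pass the filter and are not counted. For TGF-b1 against DMSO 5 of the 20 were higher and 3 lower (2 and 3 with the same total FPKM), with JUNB, an AP-1 subunit, at 1.76 (24.7, 85.8 and 65.0 FPKM) and FOSL1, another, at -1.52 (209, 72.3 and 144 FPKM). The shares of all genes were 2.31% and 6.73%, or 0.918% and 13.8% with the same total FPKM. After the correction for length and GC content 11 of the 20 were higher with DP and none lower, beside 3.18% and 2.41% of all genes, with a median of 1.33. Many of these genes also answer to other signals, and the list was chosen with several of its values known, so the count describes the list and says nothing about the activity of the kinases.

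**Figure D5:**
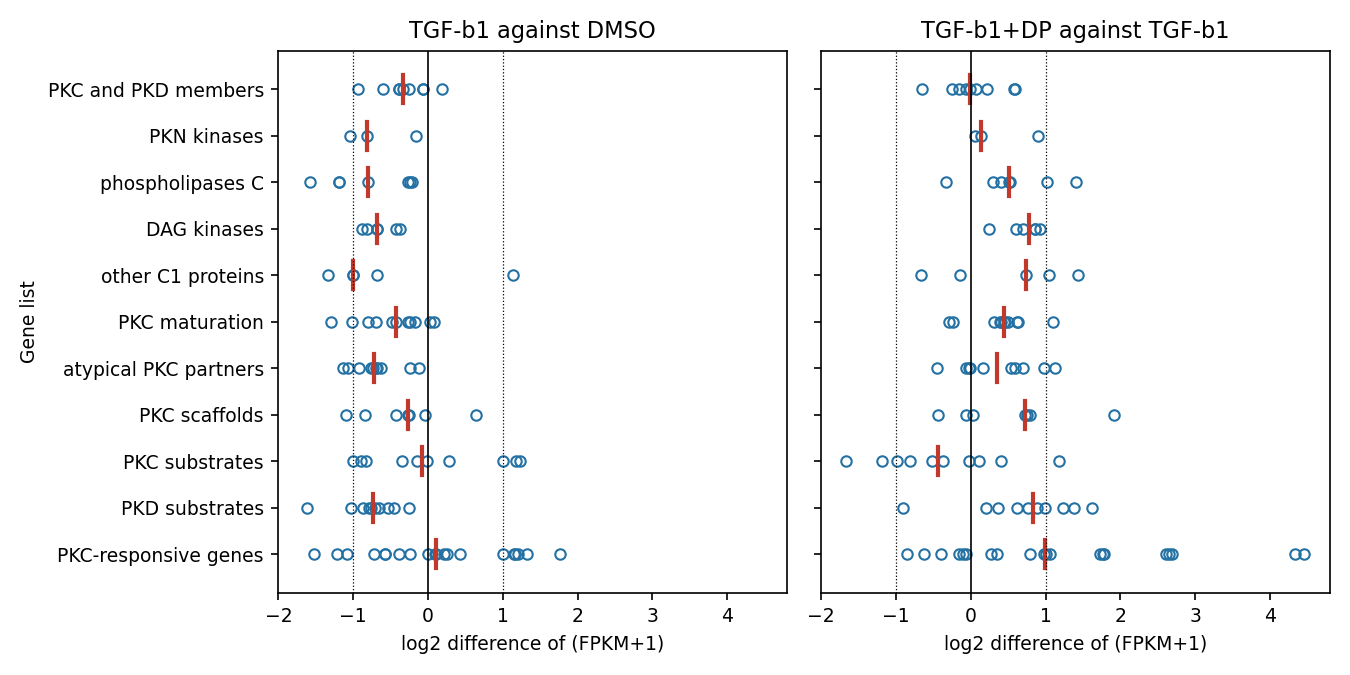
Log2 difference of (FPKM+1) for each gene at a mean of 1 FPKM or more (circles) and the median (red bar) of the 9 isoforms and 10 related lists, for TGF-b1 against DMSO (left) and TGF-b1+DP against TGF-b1 (right), with dotted lines at 1 and -1. The isoforms lie between -0.94 and 0.60, while the list of genes that respond to protein kinase C reaches 4.46 with DP.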

How the data were processed

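Gene expression was measured by RNA sequencing in 3 libraries of LX-2 cells, 1 per group. Per the file headers, the authors deposited FPKM values, 1 column per library, given to 2 decimals. The submitters' processing notes name GRCh38.p13 as build and BWA, Bowtie, Cufflinks and Cuffdiff as tools. Versions, order, strand setting and filters: not given in the sources used here. The table held 17596 lines, of which 20 named no gene, only text from gene set annotations, and were left out. Read depth is unknown. In short genes FPKM times gene span clustered in part at multiples of about 0.05, where 64.0% to 70.2% of values lay within 0.2 of a whole step. The 40% expected with no steps holds for a step fixed in advance, while this step was picked from the same values. Fragment counts were not recovered and no counting interval is given. Since FPKM values are shares of a library, more of a few abundant transcripts means less of the rest.

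Differences used a pseudocount of 1 FPKM and genes whose mean reached 1 FPKM. Calls were made at an absolute log2 difference of 1, and no p-value was computed. Alternatives were median-of-ratios, upper-quartile and same-total scaling, a pseudocount of 0.1 FPKM, no filter, a filter at 5 FPKM, a call at 0.5, and correction for transcript length and GC content by the median of the 500 nearest genes. A local linear form of that correction was added after the data were seen. Longest transcripts, positions and exon overlaps came from GENCODE release 29, which gave a length for 11280 of 11327 genes, and near copies from minimap2 2.31. The procedure was tested on simulated data. All 9 members are named. From each list the largest difference past 1 in each direction was named where the gene reached 5 FPKM, in the comparisons other than TGF-b1+DP against DMSO, as were the 3 genes nearest in pattern to a member spanning 1 or more. The members and lists were chosen with earlier results of these data known. Software was matplotlib 3.10.9, scipy 1.17.1, pandas 2.3.3 and numpy 2.4.6 on Python 3.11.15.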

Additional observations from a re-analysis of the deposited data

How the results depend on the processing

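No paired analysis was possible because each group is 1 library and no result comes from a test. Against the counts of isoforms past a log2 difference of 1 as deposited, the lower count for TGF-b1 against DMSO was 1 (PRKCA) in place of 0 with the same total FPKM, and 2 at a limit of 0.5. Of all genes 13.8% and 25.2% were lower in these 2 settings, so both counts are near the background. For TGF-b1+DP against TGF-b1 the lower count was 1 (PRKCH) at a pseudocount of 0.1 FPKM and 1 at a limit of 0.5, and the higher count was 2 at that limit. The shares of all genes were 5.74%, 20.6% and 20.2% in this order. For TGF-b1+DP against DMSO the lower count was 1 as deposited. It was 0 under median-of-ratios, upper-quartile and same-total scaling and under both corrections for length and GC content, where PRKCA lay between -0.85 and -0.97. It was 2 at a pseudocount of 0.1 FPKM and 4 at a limit of 0.5, beside 4.71% and 13.8% of all genes. The single call on PRKCA thus rests on a value next to the limit. A filter at 5 FPKM leaves out PRKCE, PRKCH and PRKD1 by construction and moved no count. Scaling moved the median of all genes for TGF-b1 against DMSO by 0.16 (median-of-ratios), 0.11 (upper-quartile) and -0.26 (same total), and for DP against TGF-b1 by 0.29 (same total). Apart from arithmetic of the settings, the cause of these moves was not tested. With no replicates and no depth, no error can be put on any value, least of all on PRKCH at 0.82 to 2.0 FPKM.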
